A study of Mus musculus with 6 samples.

Results

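The cytosolic ribosomal protein genes encode the proteins of the ribosome that works in the cytoplasm, outside the mitochondria. They were taken here as every probe set annotated to exactly 1 gene whose symbol was Rpl or Rps followed by a number, with an optional final a, x, l or y, or was Rplp0, Rplp1, Rplp2 or Rpsa, with the Rps6k kinases and pseudogenes left out. The rule used names alone and no measured value. It gave 46 genes on 100 probe sets, out of 18193 genes and 45101 probe sets in all. Another 110 ribosomal protein probe sets carried several gene symbols and were left out, so many ribosomal proteins are not among the 46. A probe set is a group of short oligonucleotides on the array that reports on 1 transcript or on a part of it.

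Ribosomal proteins are made in near-equal amounts and assembled with ribosomal RNA in the nucleolus into a small subunit, which reads the messenger RNA, and a large subunit, which joins the amino acids. Their messenger RNAs are among the most abundant of a cell, and many begin with a C and a run of pyrimidines, the terminal oligopyrimidine or TOP start, through which mTOR signalling and LARP1 control their translation. In neurons some of these messenger RNAs also travel into axons and dendrites.

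Whole spinal cord was taken from 3 Nogo-A knockout (Nogo-A KO) and 3 wild type mice, all male C57Bl/6 animals aged 4 months, untreated and uninjured, with 1 Affymetrix Mouse 430 2.0 array per animal. Nogo-A is a membrane protein of the reticulon gene Rtn4 that oligodendrocytes and neurons make and that limits neurite growth; which part of the gene was deleted, and whether the animals were littermates, is not given in the sources used here. The values were deposited intensities on a linear scale, called signals below, and every difference is the log2 signal of Nogo-A KO minus that of wild type, given with its standard error from limma. Signals of different probe sets are not comparable as amounts of messenger RNA.

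The Rtn4 probe set 1437224_at had signals of 78.2, 9.17 and 5.08 on the Nogo-A KO arrays, against 3560.2, 2790.4 and 2802 on the wild type arrays, with a limma adjusted p of 0.0151, and it was the only call of the whole comparison. The other 4 Rtn4 probe sets had differences of 0.40 to 0.70 with limma adjusted p-values of 0.538 to 0.591. Array medians were 144.1 to 149.3 in Nogo-A KO and 148.2 to 195.6 in wild type. The third wild type array stood apart: its mean correlation with the other arrays was 0.930, against 0.952 to 0.961 for the rest, and its 5th percentile of signal was 19.98, against 4.57 to 10.5. Values without it are given beside the main counts and the probe sets it moved most. Markers of neurons, oligodendrocytes and astrocytes were present on all arrays, and summed skeletal muscle markers were higher on the second Nogo-A KO array and the third wild type array than on the rest.

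The first transcribed bases of the genes that carry the results below are shown because that stretch holds the TOP start. RefSeq starts (GRCm38.p6) were matched for 40 of the 46 genes, all but Rps20, Rps29, Rpl7, Rpl8, Rps4l and Rps14. Each line holds 30 bases, 15 before the annotated start and 15 from it on, 5′ to 3′ on the strand of the gene, and capitals mark a pyrimidine run that holds a C followed by at least 4 C or T beginning within 10 bases of the start. The windows lie at chr11:114668565-114668594 (plus strand) for Rpl38, chr7:141447636-141447665 (plus strand) for Rplp2, chr17:27635230-27635259 (minus strand) for Rps10, chr7:3704026-3704055 (plus strand) for Rps9, chr10:128549154-128549183 (minus strand) for Rpl41, chr11:101442230-101442259 (plus strand) for Rpl27, chr5:115559452-115559481 (plus strand) for Rplp0 and chr9:120127751-120127780 (plus strand) for Rpsa.
Rpl38: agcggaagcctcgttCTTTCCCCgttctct
Rplp2: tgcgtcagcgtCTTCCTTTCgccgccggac
Rps10: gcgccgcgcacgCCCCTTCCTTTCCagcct
Rps9: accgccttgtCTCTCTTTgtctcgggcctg
Rpl41: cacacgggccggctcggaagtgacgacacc
Rpl27: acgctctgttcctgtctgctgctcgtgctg
Rplp0: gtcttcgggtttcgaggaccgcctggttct
Rpsa: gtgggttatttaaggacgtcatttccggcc

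On the gene's own strand such a run was present for 26 of the 40 ribosomal protein genes (65.0%), against 9297 of the 27025 genes in the table (34.4%). Counted by promoter entry, it was present in 27 of 48 against 30.7% of 32851. Rpl38, Rplp2, Rps10 and Rps9 held one, and the windows of Rpl41, Rpl27, Rplp0 and Rpsa held no such letters, which says nothing of their true start.

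A probe set was tested if its signal was in the upper part of its array, at or above the 50th percentile, on at least 2 of the 3 arrays of a genotype. This left 83 of the 100 ribosomal protein probe sets, which stood for 43 genes; the other 17 had signals of 1.51 to 199 and included the sole probe sets of Rpl39l, Rpl3l and Rps16. None of the 83 reached a limma adjusted p under 0.05, where 1 of 23525 tested probe sets did (0.00425%), and the smallest adjusted p among the 83 was 0.591. Before adjustment, 11 were higher in Nogo-A KO at a limma p under 0.05 (4.31% of all tested were) and 1 was lower (3.98% of all tested). The 11 became 3, 6 and 2 when the first, the second or the third Nogo-A KO array was left out, and 9, 12 and 15 when the first, the second or the third wild type array was. The shares of all tested probe sets higher at that threshold were 2.12%, 3.64% and 1.67% without a Nogo-A KO array and 6.65%, 3.11% and 6.32% without a wild type array, in the same order.

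The median difference of the 83 was 0.09, a fold of 1.07, against 0.01 for all tested probe sets, and 59 of the 83 were positive (71.1%, against 51.4% of all). That median depended on the scaling: it was 0.32 after dividing each array by its median, where all tested probe sets had 0.23, and -0.01 after quantile normalization, where all tested had 0.02. All 3 Nogo-A KO signals lay above all 3 wild type signals for 21 of the 83 (7.85% of all tested probe sets did) and below them for 1 (6.62%). Under quantile normalization these counts were 3 and 8, against 1684 and 1289 of all tested probe sets. Without the third wild type array they were 24 and 10, against 3498 and 3465 of all tested, beside a median difference of 0.03 for the 83.

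The differences were small. In 64 of the 83 probe sets (77.1%) the whole 95% limma interval lay within 0.5 log2 either way, a fold of 1.41, against 40.9% of all tested. That share went with the signal: at a mean signal of at least 5000, a limit chosen after the values were seen, it was 96.5% of 57 ribosomal protein probe sets and 91.3% of 1075 others, and it was 34.6% of the 26 dimmer ribosomal protein probe sets. Standard errors ran from 0.079 to 0.68, with 42 of them below 0.1. The median SD of log2 signals was 0.09 in Nogo-A KO and 0.15 in wild type, and the Nogo-A KO SD was the smaller in 64 of 83 (77.1%), against 68.0% of all tested probe sets and 76.5% of the 1075 other bright ones. Without the third wild type array the medians were 0.09 in Nogo-A KO and 0.11 in wild type, and the Nogo-A KO SD was the smaller in 45 of 83 (54.2%), against 47.2% of all tested. With 3 arrays against 3, an exact permutation test of a single probe set cannot give a p below 0.1.

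**Figure D1:**
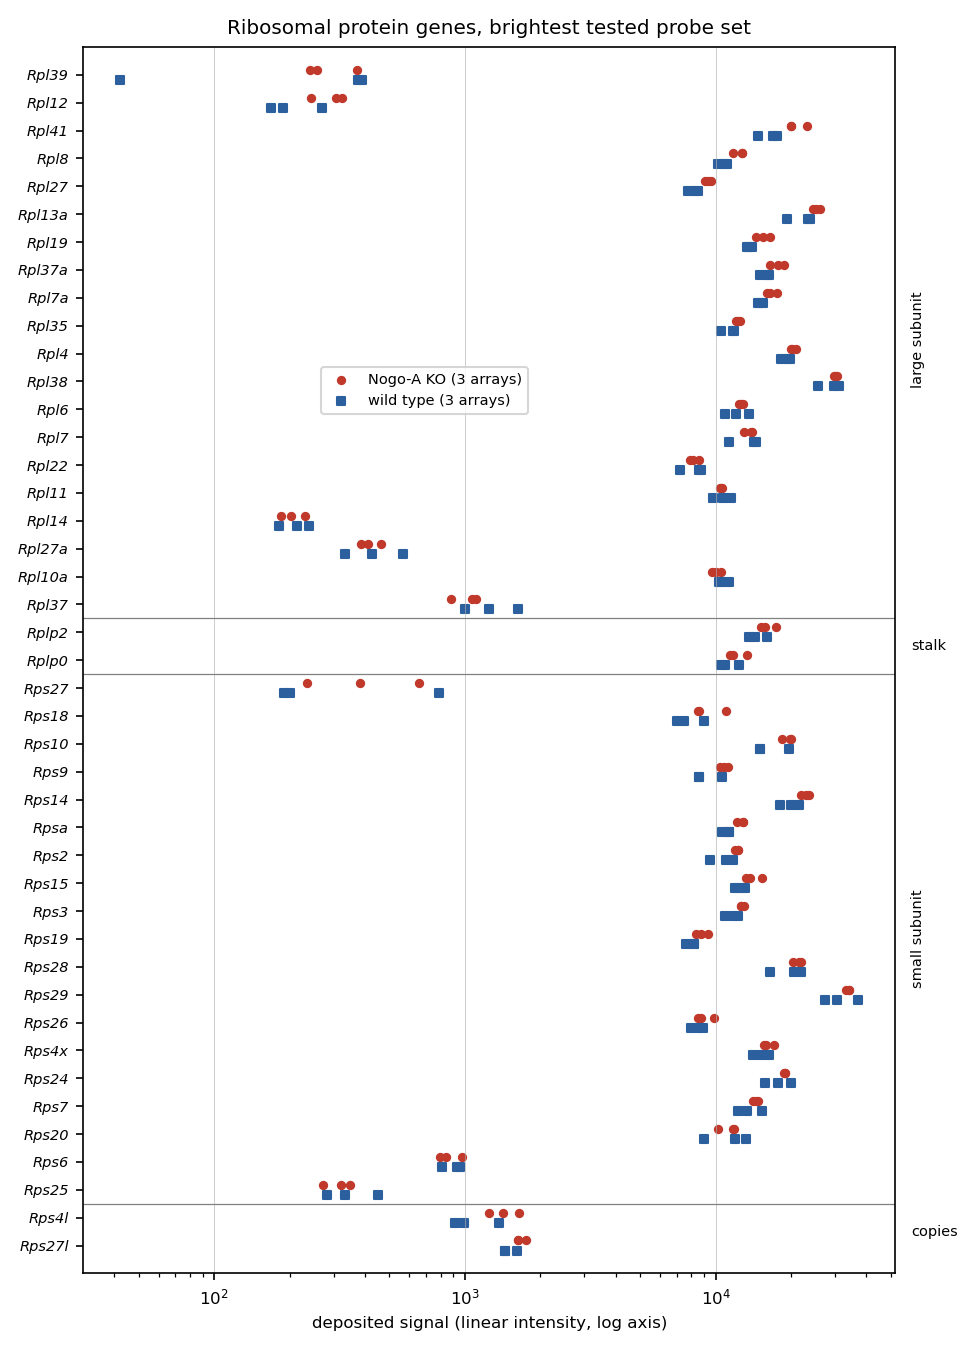
Deposited signal (log axis) of the brightest tested probe set of each of 43 ribosomal protein genes, with 3 Nogo-A KO arrays as circles above 3 wild type arrays as squares, ordered by role and by log2 difference. As deposited, in 16 of the 43 genes (37.2%) all Nogo-A KO points lie right of all wild type points, as in Rpl41, Rpl8 and Rpl27. This held for 7.85% of all tested probe sets and 29.4% of the 1075 others with a mean signal of at least 5000. No gene has the reverse, which 6.62% of all tested and 3 of the 1075 others had. Probe sets that are not the brightest of their gene are not drawn.

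On the deposited scale, the positive differences were mostly those of bright probe sets. The 57 ribosomal protein probe sets with a mean signal of at least 5000 had a median difference of 0.11, and 47 were positive (82.5%). The 26 dimmer ones had a median of -0.02, and 12 were positive (46.2%). The 1075 other tested probe sets as bright as this, of any function, had a median of 0.11, and 928 of them were positive (86.3%). Groups did not overlap, with Nogo-A KO above, in 20 of the 57 ribosomal protein probe sets (35.1%) and in 316 of the 1075 others (29.4%). Without the third wild type array the medians were 0.05 for the 57 and 0.06 for the 1075, with 68.4% and 67.7% positive. Nogo-A KO then lay above without overlap in 21 (36.8%) and 370 (34.4%), and below in 7 (12.3%) and 104 (9.67%).

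**Figure D2:**
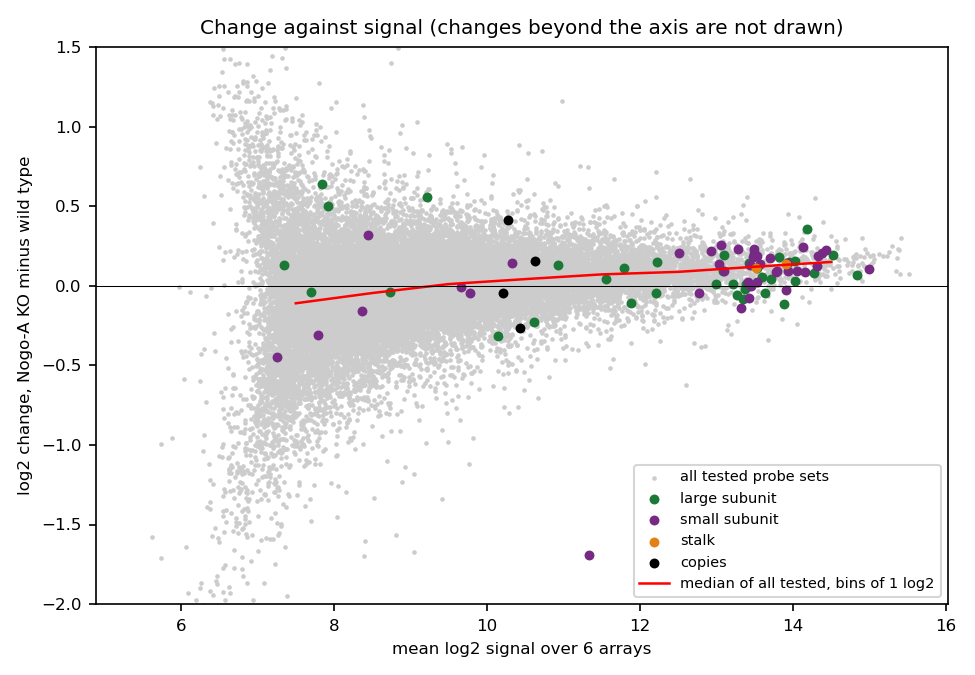
Log2 difference, Nogo-A KO minus wild type, against mean log2 signal over 6 arrays, for all 23525 tested probe sets in grey and the 83 ribosomal protein probe sets coloured by role. The red line is the median of all tested probe sets in bins of 1 log2; most ribosomal protein points lie at its bright end and close to it, and Rps9 1434624_x_at lies far below it at -1.69.

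In the large subunit, 20 genes had 37 tested probe sets with a median difference of 0.07, of which 26 were positive, 3 had an unadjusted limma p under 0.05 (all higher in Nogo-A KO) and 10 did not overlap with Nogo-A KO above. These were 8.11% and 27.0% of the 37, beside 4.31% and 7.85% of all tested and 17.1% and 29.4% of the other bright probe sets. Without the third wild type array the median was -0.01, with 17 of the 37 positive. Then 10 (27.0%) lay above and 7 (18.9%) below without overlap, against 14.9% and 14.7% of all tested. Quantile normalization gave a median of -0.02, with 2 above and 6 below without overlap (7.16% and 5.48% of all tested). Rpl41, the smallest ribosomal protein, lies between the subunits. Its probe set 1455578_x_at had signals of 19999.6, 20062 and 23246 on the Nogo-A KO arrays, against 17665, 16956 and 14836 on the wild type arrays. The groups did not overlap, with the third Nogo-A KO array the highest and the third wild type array the lowest. The difference was 0.36 ± 0.10, the smallest p of the 83, with a limma adjusted p of 0.591; it was 0.28 without the third wild type array and 0.22 after quantile normalization. A second bright probe set of the gene, 1422623_x_at, did not share it. Its signals were 16473, 12685 and 14651 on the Nogo-A KO arrays, against 15303, 15352 and 16591 on the wild type arrays, the groups overlapped, and its difference was -0.12 ± 0.10, or 0.11 after median scaling.

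Rpl8, a protein of the catalytic core, had signals of 11761, 12694 and 12769.5 on the Nogo-A KO arrays, against 11144, 10767 and 10272 on the wild type arrays. Its groups did not overlap, and the difference was 0.21 ± 0.08, a fold of 1.16, with a limma adjusted p of 0.594; it was 0.09 after quantile normalization. Rpl27, another large subunit protein, had signals of 9069, 9353 and 9602 on the Nogo-A KO arrays, against 8246, 8486 and 7742 on the wild type arrays on its brightest probe set. These groups did not overlap either, and the difference was 0.20 ± 0.08, a fold of 1.15, and 0.09 after quantile normalization. Rpl27 had another 2 tested probe sets, 1448217_a_at and 1453096_x_at, at 0.04 and -0.11, with overlapping groups. Of 4 further large subunit genes measured by 1 tested probe set each, Rpl19 had a difference of 0.18 ± 0.08 and Rpl7a one of 0.15 ± 0.08, both without overlap; these were 0.06 and 0.01 after quantile normalization. Rpl11, which also binds Mdm2, the inhibitor of p53, had -0.02 ± 0.09, and Rpl6 had 0.05 ± 0.09, both with overlapping groups; these were -0.13 and -0.05 after quantile normalization.

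Rpl38, known from mouse mutants for its part in the translation of Hox messenger RNAs, was one of the 5 brightest probe sets, at 29823, 29921 and 30454 on the Nogo-A KO arrays, against 31065, 29573 and 25660.2 on the wild type arrays. The groups overlapped, the first wild type array being the highest of the 6, and the difference was 0.07 ± 0.09; it was -0.01 without the third wild type array and -0.09 after quantile normalization. Rpl10a, a protein of the L1 stalk through which spent transfer RNA leaves, had signals of 10530.4, 10042 and 9692 on the Nogo-A KO arrays, against 10479, 11312 and 10288 on the wild type arrays. Its groups overlapped, with a difference of -0.08 ± 0.08 as deposited and 0.14 after median scaling. Rpl37, a zinc-binding protein, was measured by 1 probe set of lower signal, at 1111, 1069 and 881 on the Nogo-A KO arrays, against 1245, 1636 and 997 on the wild type arrays. The second wild type array was the highest, the groups overlapped, and the difference was -0.32 ± 0.18, with a limma adjusted p of 0.649; it was -0.13 without the second wild type array and -0.10 after median scaling.

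The stalk is the flexible arm of the large subunit that calls in the elongation factors. Rplp0, its base, had signals of 11739, 11457 and 13398 on the Nogo-A KO arrays, against 12364, 10537 and 10951 on the wild type arrays. Rplp2, one of the acidic P proteins on that base, had signals of 15721, 15168 and 17412 on the Nogo-A KO arrays, against 13559, 16009.7 and 14319 on the wild type arrays. Both had their highest signal on the third Nogo-A KO array, and in both the groups overlapped. Their differences were 0.11 ± 0.10 and 0.14 ± 0.09, with limma adjusted p-values of 0.76 and 0.693. Quantile normalization gave -0.0039 for Rplp0 and 0.03 for Rplp2.

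In the small subunit, 20 genes, of which Rps16 was not tested, had 40 tested probe sets with a median difference of 0.11. Of these 40, 29 were positive and 10 did not overlap with Nogo-A KO above. At an unadjusted limma p under 0.05, 7 were higher in Nogo-A KO and 1 was lower. The 7 and the 10 were 17.5% and 25% of the 40, beside 4.31% and 7.85% of all tested and 17.1% and 29.4% of the other bright probe sets. Without the third wild type array the median was 0.05, and 9 were higher and 3 lower (6.32% and 5.17% of all tested). Then 12 lay above and 3 below without overlap (14.9% and 14.7% of all tested). Quantile normalization gave a median of -0.02, with 0 higher and 1 lower (3.69% and 2.81% of all tested). There 1 lay above and 2 below without overlap (7.16% and 5.48% of all tested). Rps10, a protein of the head near the messenger RNA entry channel, had 5 tested probe sets, all of them positive on the deposited scale. Their differences were 0.14, 0.19, 0.22, 0.23 and 0.24, and the groups overlapped in those at 0.14, 0.19 and 0.24. On the brightest, at 0.24, the second wild type array, at 19602, lay among the Nogo-A KO arrays, at 19873, 18486 and 20059. The one with the smallest p, 1456497_x_at, had signals of 12523, 12334 and 12357 on the Nogo-A KO arrays, against 10442, 11333 and 10006 on the wild type arrays. Its groups did not overlap, and the difference of 0.23 ± 0.08 had a limma adjusted p of 0.591; it was 0.19 without the third wild type array and 0.13 after quantile normalization. The 5 probe sets share a messenger RNA and are not 5 independent measurements.

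Rpsa, which doubles as a laminin receptor at the cell surface, had signals of 12204, 12817 and 12833 on the Nogo-A KO arrays, against 11312, 11349 and 10580.4 on the wild type arrays. The groups did not overlap, and the difference was 0.19 ± 0.08, a fold of 1.14, and 0.08 after quantile normalization. Rps14, a protein of the platform whose loss of 1 copy underlies the anaemia of the human 5q- syndrome, had signals of 22972, 21866 and 23642 on the Nogo-A KO arrays, against 21534, 19944 and 18075 on the wild type arrays on its brightest probe set, again without overlap. Its difference was 0.20 ± 0.09, and its second tested probe set had 0.09 ± 0.08; quantile normalization gave 0.05 and -0.02. Rps19, the gene most often mutated in human Diamond-Blackfan anaemia, had 0.14 ± 0.09 without overlap on its single probe set, and 0.03 after quantile normalization. Rps6, the substrate of the S6 kinases below mTOR, had -0.05 ± 0.13 with overlapping groups on a probe set of low signal.

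Rps29, a zinc-binding protein of the head, had 3 tested probe sets, all among the bright ones. On 1415833_x_at its signals were 22364, 23593 and 25424 on the Nogo-A KO arrays, against 19669.9, 22225 and 19207 on the wild type arrays. The groups were apart by a narrow margin, the first Nogo-A KO array against the second wild type array, and the difference was 0.23 ± 0.09, with a limma adjusted p of 0.594; it was 0.09 after quantile normalization. On 1438859_x_at, the brightest of all the ribosomal protein probe sets, the signals were 34012, 34018 and 33152 on the Nogo-A KO arrays, against 30518, 37112 and 27349.7 on the wild type arrays. There the second wild type array was the highest of the 6, and the difference was 0.10 ± 0.11, 0.0030 without the third wild type array and -0.05 after quantile normalization.

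Of the 46 genes, 4 are extra copies of a core gene. Rps27l, a copy of Rps27 that p53 induces, had 3 tested probe sets with differences of -0.27, -0.05 and 0.15. On 1435429_x_at, which had the smallest p of the 3, its signals were 1361, 1303 and 1131 on the Nogo-A KO arrays, against 1272, 1633 and 1681 on the wild type arrays, with overlapping groups and a limma adjusted p of 0.625. That difference of -0.27 was -0.05 after median scaling. On 1450925_a_at, the brightest of the 3, the signals were 1627, 1622 and 1754 on the Nogo-A KO arrays, against 1445, 1611 and 1445 on the wild type arrays. There the groups did not overlap, and the difference was 0.15 ± 0.11, or 0.11 after quantile normalization. Rps4l, a copy of Rps4x, had signals of 1637, 1252 and 1423 on the Nogo-A KO arrays, against 912, 995 and 1366 on the wild type arrays. The third wild type array lay within the range of the Nogo-A KO arrays, so the groups overlapped, and the difference was 0.41 ± 0.16; it was 0.59 without that array, with limma adjusted p-values of 0.594 with it and 0.22 without it. The Rps4x probe set itself had 0.09 ± 0.09, and -0.04 after quantile normalization.

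Rpl39l, the copy of Rpl39 known from testis, and Rpl3l, the copy of Rpl3 known from skeletal muscle and heart, were not tested, since their signals were low. Rpl39l had signals of 12.5, 6.16 and 9.15 on the Nogo-A KO arrays, against 3.80, 19.4 and 40.7 on the wild type arrays. Rpl3l had signals of 35.3, 99.04 and 26.6 on the Nogo-A KO arrays, against 9.22, 20.2 and 83.8 on the wild type arrays. Rpl3l was highest on the second Nogo-A KO array and the third wild type array. These are the arrays on which the summed signals of the tested skeletal muscle markers, 8 of 10 listed, were highest, at 6867, 21134 and 6806 in Nogo-A KO and 6296, 7331 and 12252 in wild type; no marker was listed at 0, and their part in the Rpl3l values was not tested.

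Where a gene had several tested probe sets, they did not always give the same answer. This could be compared in 19 genes: all probe sets had the same sign in 10 and mixed signs in 9, and the median gap between the highest and lowest difference of a gene was 0.17, larger than the median difference itself. Probe sets of 1 gene can differ in the transcript ends they cover and in how many other transcripts they bind; names ending in _x_at or _s_at mark those that the array's makers list as shared with other transcripts, and 41 of the 83 tested ended so.

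The widest gap was that of Rps9, a small subunit protein that binds ribosomal RNA early in assembly. Its probe set 1434624_x_at had signals of 2945, 2795 and 361 on the Nogo-A KO arrays, against 4659.5, 5939 and 3626 on the wild type arrays. The Nogo-A KO signals were the lower, the third by far, and this was the only probe set of the 83 with all Nogo-A KO signals below all wild type signals, at a difference of -1.69 ± 0.62 and a limma adjusted p of 0.591. Without the third Nogo-A KO array the difference was -0.70. Its other tested probe set, 1433689_s_at, had signals of 11214, 10768 and 10417 on the Nogo-A KO arrays, against 10566, 8582 and 8554 on the wild type arrays. There the first wild type array lay among the Nogo-A KO arrays, and the difference was 0.23 ± 0.10, of opposite sign, and 0.12 after quantile normalization.

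Rpl37a, a zinc-binding large subunit protein, had differences of 0.03, 0.16 and 0.56; the first was -0.11 without the third wild type array, the second was 0.01 after quantile normalization, and the last came from a dim probe set with signals of 910.4, 713 and 582 on the Nogo-A KO arrays, against 611, 825 and 233 on the wild type arrays. Without the third wild type array that difference of 0.56 ± 0.37 was 0.03. Rpl13a, which in human cells can leave the ribosome to silence inflammatory messenger RNAs, had differences of -0.23, -0.05 and -0.05 on 3 probe sets and 0.20 on the brightest. That brightest one had signals of 24488, 26071 and 25179.5 on the Nogo-A KO arrays, against 23352, 23813 and 19232 on the wild type arrays, without overlap; its difference was 0.10 without the third wild type array and 0.04 after quantile normalization. Rps20, a protein of the small subunit head, had differences of -0.45, -0.08 and -0.0017, all with overlapping groups. The first came from a dim probe set with signals of 191, 122 and 95.2 on the Nogo-A KO arrays, against 189, 170 and 174 on the wild type arrays. It passed the signal filter only through the wild type arrays, and the wide gap of Rps20 rests on it. The last 2, on bright probe sets, were 0.14 and 0.22 after median scaling. Rps24, with 5 tested probe sets, ran from -0.31 on a dim one to 0.09 on its brightest, which was 0.0019 without the third wild type array and -0.05 after quantile normalization.

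**Figure D3:**
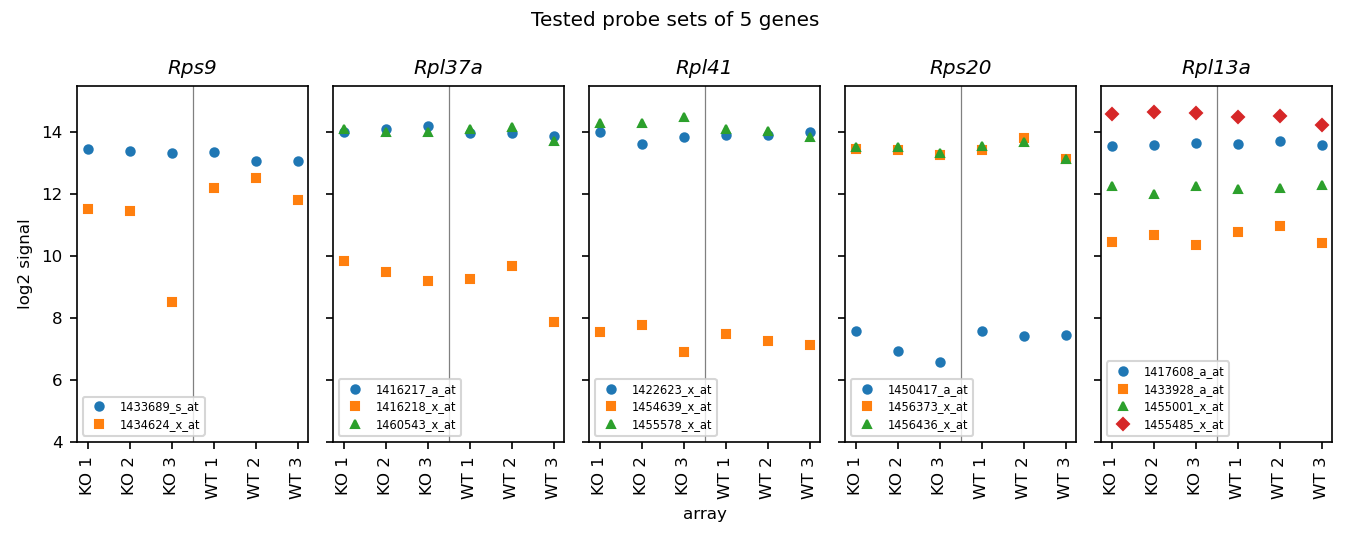
Log2 signal of every tested probe set of the 5 genes whose probe sets differed most in their change, on each of 3 Nogo-A KO arrays and 3 wild type arrays (KO and WT, split by the grey line). In Rps9 the lower probe set lies lowest on the third Nogo-A KO array, at a signal of 361, while the bright probe sets of all 5 genes stay within a narrow band.

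The arrays of a genotype were not alike. Set against the 6-array mean of each probe set, the median level of the 83 was 0.05, 0.02 and 0.03 log2 on the Nogo-A KO arrays and -0.0088, 0.05 and -0.16 on the wild type arrays. The third wild type array was thus the low one, and the second lay among the Nogo-A KO arrays. The third was the lowest of the 6 in 50 of the 83 probe sets (60.2%), against 28.5% of all tested probe sets; among bright probe sets it was the lowest in 43 of the 57 ribosomal protein ones (75.4%) and in 713 of the 1075 others (66.3%). Without that array the number with an unadjusted limma p under 0.05 was 15 higher and 6 lower in Nogo-A KO, where 6.32% and 5.17% of all tested probe sets were called.

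The kind of probe set went with the array levels. The 38 tested probe sets ending in _x_at had levels of 0.06, 0.03 and -0.0076 on the Nogo-A KO arrays and 0.01, 0.09 and -0.23 on the wild type arrays, so the second wild type array was their highest. That array was the highest of the 6 in 18 of these 38 (47.4%), against 17.95% of all tested. At a mean signal of at least 5000 it was the highest in 13 of the 28 ribosomal protein probe sets with this ending (46.4%) and in 39 of the 184 other bright probe sets with this ending (21.2%). The 26 ending in _a_at, which cover several transcripts of 1 gene, had levels of 0.04, 0.03 and 0.11 on the Nogo-A KO arrays and -0.03, 0.03 and -0.14 on the wild type arrays. Their median difference was 0.13, against 0.06 for the _x_at ones and 0.14 for the 16 with the plain ending _at. Cross-binding between near-identical ribosomal protein copies was not tested, and values of the _x_at probe sets are uncertain for that reason.

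**Figure D4:**
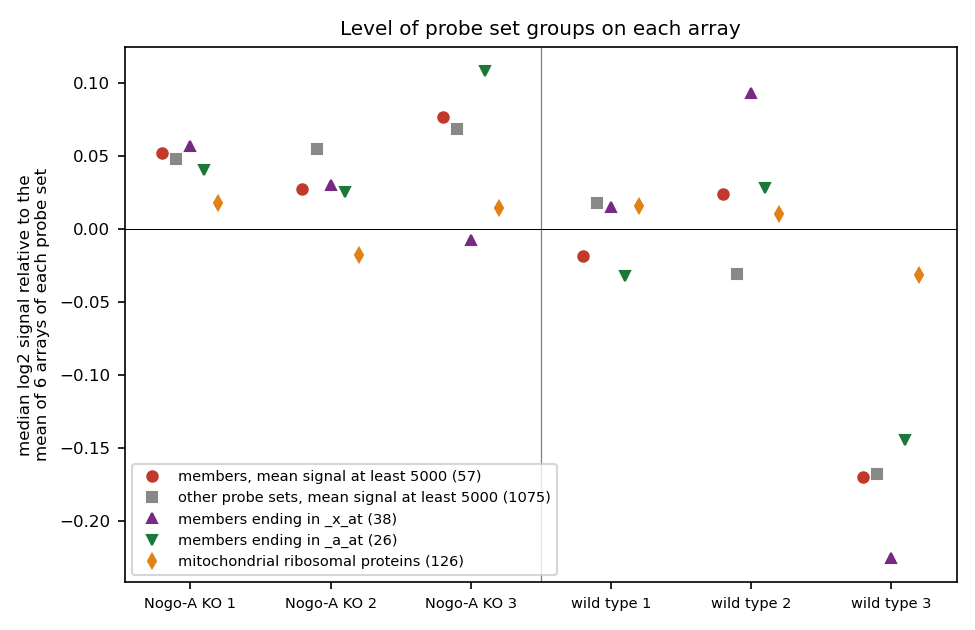
Median log2 signal of probe set groups on each array, relative to the 6-array mean of each probe set, with 3 Nogo-A KO arrays left and 3 wild type arrays right of the grey line. Bright ribosomal protein probe sets and other bright probe sets both lie near -0.17 on the third wild type array, while mitochondrial ribosomal protein probe sets lie at -0.03 there.

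The 98 tested probe sets with several symbols, at least 1 of which fitted the naming rule, were no part of the 83. They had a median difference of 0.10, with 81 positive, and the third wild type array was the lowest in 70 of them. The 76 mitochondrial ribosomal protein genes, whose products make the separate ribosome of that organelle, had 126 tested probe sets with a median difference of 0.01, of which 67 were positive. At an unadjusted limma p under 0.05, 2 were higher and 5 lower, where 4.31% and 3.98% of all tested probe sets were. Taken as the brightest tested probe set of each gene, the 43 cytosolic genes had a median of 0.14 with 35 positive, and the 76 mitochondrial ones a median of 0.06 with 47 positive. The 2 sets were not matched on signal.

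Of the mitochondrial ribosomal proteins, Mrpl32 had signals of 1185, 967 and 875 on the Nogo-A KO arrays, against 1194, 1507 and 1278 on the wild type arrays, with a difference of -0.40 ± 0.14. Mrps36 had -0.34 and Mrpl58, also a peptide release factor, 0.29. The groups did not overlap in any of the 3, and none reached a limma adjusted p under 0.05.

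The other genes of protein synthesis were read as the brightest tested probe set of each gene, and no gene of these lists reached a limma adjusted p under 0.05. Of the elongation and termination factors, 9 of 10 were tested, with a median difference of 0.09, and 2 (22.2%) were higher before adjustment. The share was 4.31% of all tested probe sets and 17.1% of the 1075 other bright ones. Eef1a2, the form of elongation factor 1 alpha found in adult neurons and muscle, had signals of 11568, 10675 and 13793 on the Nogo-A KO arrays, against 8831, 7148 and 10566 on the wild type arrays, without overlap. Its difference was 0.45 ± 0.14, with a limma adjusted p of 0.591, and that of Eef2, which moves the ribosome along the messenger RNA, was 0.21 ± 0.09. Of 37 initiation factors, 32 were tested, with a median of 0.07, and 3 (9.38%) were higher before adjustment. These were Pabpc1, the poly(A)-binding protein, at 0.22 ± 0.08, Eif3c, a core subunit of the scaffold factor eIF3, at 0.23 ± 0.10, and Eif4b, which assists the helicase that unwinds the messenger RNA, at 0.24 ± 0.10.

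Genes of ribosome building lay on both sides of 0. All 45 listed biogenesis genes were tested, with a median of 0.04. Of these, 2 were higher and 2 lower before adjustment, where 4.31% and 3.98% of all tested probe sets were. Riok2, a kinase that ripens the small subunit in the cytoplasm, had signals of 656, 715 and 511 on the Nogo-A KO arrays, against 1036, 1159.8 and 839.9 on the wild type arrays. Its groups did not overlap, and the difference was -0.69 ± 0.17, with a limma adjusted p of 0.591. Noc4l and Wdr43, which act in small subunit assembly in the nucleolus, had 0.47 ± 0.16 and -0.42 ± 0.14. The 11 tested genes of RNA polymerase I, the enzyme that makes ribosomal RNA, had a median of -0.11 with 5 positive and none called in either direction. Taf1d had the smallest p at 0.28 ± 0.17. The third wild type array was the highest of the 6 in 6 of these 11 genes. Relative to the 6-array mean, their median level was 0.17 log2 there, against -0.06 to 0.05 on the other arrays.

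Among 26 tested genes of growth signalling and of the control of ribosomal protein translation, the median was 0.03. Before adjustment 2 were lower in Nogo-A KO, where 3.98% of all tested probe sets were. These were Max, the partner of Myc, at -1.12 ± 0.36, and Sesn2, a stress-induced inhibitor of mTOR signalling, at -1.67 ± 0.66, both on dim probe sets. The 8 other messenger RNAs with a TOP start had a median of 0.03, with Tpt1, the translationally controlled tumour protein, at 0.17 ± 0.08. Of the 4 tested relatives outside the naming rule, which had a median of 0.06, Fau, whose product is cut into ubiquitin-like and ribosomal protein parts, had 0.12 ± 0.08, and Rpl22l1, the copy of Rpl22, had 0.16 ± 0.10.

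**Figure D5:**
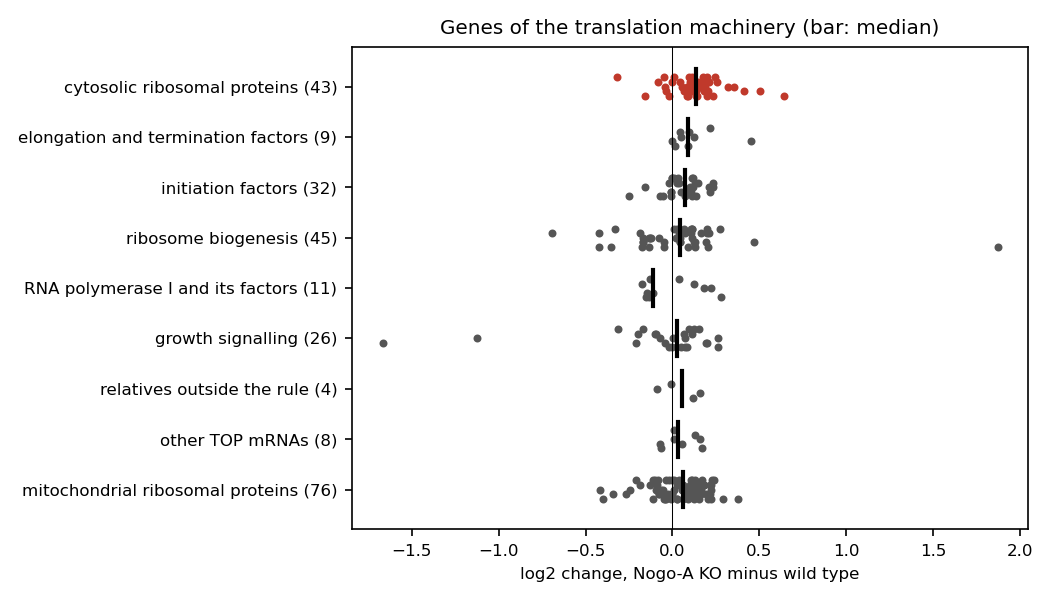
Log2 difference, Nogo-A KO minus wild type, of the brightest tested probe set of each gene, for the 43 cytosolic ribosomal protein genes in red and the genes of the other lists in grey, with the number of genes in brackets and a black bar at the median. All points of the ribosomal protein genes lie between -0.32 and 0.64, with the median at 0.14 as deposited. The RNA polymerase I list has a median of -0.11, and its median level was highest on the third wild type array.

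In whole cord, fewer cells of a type and less messenger RNA per cell cannot be told apart, and ribosomal protein messenger RNAs come from every cell. Marker lists of several cell types had median differences away from 0 on the deposited scale, with no marker at a limma adjusted p under 0.05. On that scale the 1075 other bright probe sets, of any function, had a median of 0.11. Whether the markers went beyond that level was not tested. The 7 tested oligodendrocyte markers, 5 positive and 2 negative, had a median difference of 0.23. They summed to signals of 122323, 121946 and 134973 in Nogo-A KO and 106564, 110511 and 106696 in wild type. The 8 neuron markers, all positive, had a median of 0.19, and their sums were 118915, 119912 and 122221 in Nogo-A KO and 113950, 117053 and 99232 in wild type. The third wild type array was the lowest of the 6 in 5 of these 8, and in 2 of the 7 oligodendrocyte markers. The 7 microglia markers, 1 positive and 6 negative, had a median of -0.21, with sums of 10798, 12071 and 11451 in Nogo-A KO and 10797, 14775 and 15429.6 in wild type. The 6 fibroblast and meninges markers had a median of 0.40, with 5 positive and 1 negative, at -0.47. Their sums were 10425, 11214 and 10111 in Nogo-A KO and 8714, 7116 and 8438 in wild type. No listed marker was at 0, and the part of cell composition in the ribosomal protein values was not tested.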

How the data were processed

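The authors deposited signal intensities on a linear scale, 1 column per array, made with GCOS 1.4 and MAS5 per the submitters' processing notes; a genome build is not given in the sources used here. The table listed 45101 probe sets, and the trimmed mean of each array was 500.002 or 500.003, so the deposited intensities shared a target level; this scaling was kept, and log2 was taken after a floor of 1. After removal of 64 control probe sets, those with signals in the upper part of an array (50th percentile or higher) on 2 or 3 of the arrays of either genotype were tested, 23525 in number.

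The genotypes were compared with limma (version 3.58.1, R 4.3.3; lmFit, then eBayes with an intensity trend), Benjamini-Hochberg adjustment over all tested probe sets and a threshold of 0.05; the fit was tested on simulated data first. The p-values rest on the spread between these animals, which limma pools with that of other probe sets of like signal. The number of arrays limits the precision. The platform annotation, brought up to date with a RefSeq table, gave 34945 probe sets 1 symbol, 932 several and 9160 none. Gene starts are those of RefSeq promoter entries of GRCm38.p6, which were not used to place probes.

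The ribosomal protein genes, the other gene lists and the marker lists were chosen with earlier results of these data known. Named probe sets were the 8 with the smallest p in each direction, the 5 brightest, all stalk proteins and extra copies, all tested probe sets of the 5 genes whose probe sets differed most, up to 3 genes with the smallest p per other list, and the Rtn4 check. Rpl6, Rpl7a, Rpl11, Rpl19, Rps4x, Rps6, Rps19 and further probe sets of named genes were added after their values were seen, as was the limit of 5000. Alternatives were other scalings, filters, an offset, a fit without the trend, the methods' t-test, a replicate block, fits without 1 array and subsets of probe sets.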

Additional observations from a re-analysis of the deposited data

How the results depend on the processing

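No ribosomal protein probe set reached a limma adjusted p under 0.05 under any of the alternatives run. The named probe sets kept the sign of their difference in 439 comparisons and turned it in 20. Many of the 439 could not have turned: other filters, the fit without the trend and the replicate block leave the difference itself unchanged. As deposited, 11 of the 83 were higher and 1 lower in Nogo-A KO at an unadjusted limma p under 0.05. There 21 lay above and 1 below without overlap, and the median difference was 0.09. Median scaling gave 14 and 1, 40 and 0 without overlap and a median of 0.316, where 11.9% of all tested were higher and 19.9% without overlap above; quantile normalization gave 2 and 3, 3 and 8 without overlap and a median of -0.014. Of all tested under quantile normalization, 3.69% and 2.81% were higher and lower, and 7.16% and 5.48% lay above and below without overlap. No filter gave 6 and 2 with 3 below without overlap. There 2.61% and 5.54% of all 45037 were higher and lower, and 4130 lay below. The filter at the 25th percentile gave 2 lower and 3 below without overlap, where 4.99% of all 36221 were lower and 2988 lay below. Without the intensity trend 1 was higher and 0 lower, against 2.96% and 4.84% of all tested. The methods' t-test gave 8 and 0, against 3.98% and 3.17% of all tested. Only the brightest probe set of each gene gave 8 and 0 with 0 below without overlap. Without the _x_at and _s_at probe sets there were 6 and 0, with 13 above and 0 below. For these 2 subsets the shares of all tested were those of the main fit, 4.31% higher, 3.98% lower, 7.85% above and 6.62% below. Leaving out 1 array at a time, the number higher ran from 2 to 15 and the number lower from 0 to 6. Those without overlap ran from 22 to 34 above and from 1 to 10 below, and the median from 0.0278 to 0.137. Of all 23525 tested, 1.67% to 6.65% were higher and 2.35% to 7.35% lower in these fits. Without overlap, 11.1% to 16.4% of them lay above and 2292 to 3793 probe sets lay below. The 15, the 6, the 10 and the lowest median came without the third wild type array, and the 34 and the highest median without the second. The cause of these differences was not tested.

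The signs of the following named probe sets turned. Median scaling gave 0.105 for Rpl41 1422623_x_at, 0.138 for Rpl10a, 0.173 for Rps27l 1423254_x_at, 0.144 and 0.22 for the bright Rps20 probe sets, and 0.176 for Rpl13a 1417608_a_at and 1455001_x_at. Quantile normalization gave -0.0538 for Rps29 1438859_x_at, -0.0936 for Rpl38, -0.00394 for Rplp0 and -0.092 for Rpl37a 1460543_x_at. Without 1 array at a time, the difference ran from -0.0117 to 0.126 for Rpl38, from -0.106 to 0.111 for Rpl37a 1460543_x_at, from -0.052 to 0.383 for Rpl41 1454639_x_at, from -0.246 to 0.101 for Rps20 1456373_x_at, from -0.16 to 0.112 for Rps20 1456436_x_at and from -0.086 to 0.0343 for Rpl13a 1455001_x_at.

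Both genotypes carry replicate numbers 1 to 3, and the labels do not say whether these pair the animals. Same-numbered arrays had correlations of deviations of -0.0346, 0.074 and 0.114, which with 3 arrays per genotype can neither show nor exclude a pairing. With the replicate block 9 of the ribosomal protein probe sets were higher and 2 lower, against 5.29% and 4.60% of all tested.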
